A study of Fundulus heteroclitus with 36 samples.

Results

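The genes sox4a, gap43 and neurog1 were described in RNA sequencing of 36 whole brains, each from a single Atlantic killifish (Fundulus heteroclitus) embryo sampled 17 days after fertilisation. They were chosen by name as 3 genes of neuronal birth and outgrowth, of 31637 genes measured. Earlier results of these data were known when they were chosen, so their p-values are not those of an unselected test. Sequencing reads assigned to each gene's transcripts were summed per embryo.

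The series compares brains after PCB126 or parental methylmercury in fish of New Bedford Harbor (NBH), a site known for PCB pollution, and of Scorton Creek (SCO). These 2 populations gave 6 groups of 6 embryos. PCB126, a dioxin-like polychlorinated biphenyl, was given to the embryos from day 1 to day 7 after fertilisation. NBH Control embryos received no PCB126, NBH PCB40 embryos received 40 ng/L and NBH PCB400 embryos received 400 ng/L. SCO PCB40 embryos received 40 ng/L and SCO Control embryos received none. SCO Hg Fed embryos received no PCB126, but their parents had been kept on a tuna diet high in methylmercury. The series' design text gives the parents of the PCB126-exposed embryos of both populations a salmon diet low in methylmercury, the diet that also made the reference stock. No brains of SCO embryos at 400 ng/L were analysed here, so the higher dose can be read in NBH fish alone. Whether embryos of a group shared parents is not given in the labels, so p-values measure the spread between these embryos.

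New neurons are specified by proneural transcription factors, which start the neuronal programme in dividing progenitors and raise Notch ligands that hold neighbouring cells back. Transcription factors of the SoxC group then switch on genes of the differentiating neuron, and growing axons are extended by a growth cone rich in tubulin, actin and membrane proteins. Neurogenin 1, encoded by neurog1, is a basic helix-loop-helix proneural factor. Sox4a is a SoxC factor with an HMG box that binds DNA. Sox4b, Sox11a and Sox11b are its relatives in teleost fish. Growth-associated protein 43, encoded by gap43, is a membrane phosphoprotein of growth cones that binds calmodulin and is phosphorylated by protein kinase C.

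Each of the 3 genes is represented by 1 transcript in the files, of 4581 bases for sox4a (gene ID 105931975), 2016 bases for gap43 (105933174) and 1231 bases for neurog1 (105920505). All are protein-coding. Levels within a gene are CPM, the share of a library's counts, scaled by the trimmed mean of M values (TMM), which does not correct for length. Levels between genes are the TPM values deposited by the authors, the share of transcripts per length, which do. A comparison was called when the adjusted p fell under 0.05 over the 23292 genes tested. All 3 genes passed the filter on low counts.

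Library totals ranged from 38.5 M to 66.5 M estimated reads, and the 3 genes were read deeply in every embryo. The lowest count was 1211 reads for sox4a, 31237 for gap43 and 689 for neurog1. Neuron markers were present in all libraries, with snap25a between 821 and 2692 TPM. The 6 matched retinal markers reached at most 0.0773 TPM for pde6c, 0.169 TPM for gnat1 and 0.222 TPM for rcvrna. The highest values were 0.412 TPM for crx, 0.932 TPM for gnat2 and 5.73 TPM for arr3a. Pituitary and posterior hox markers varied from embryo to embryo, with 7 of 8 matched pituitary genes and 7 of 7 matched posterior hox genes at 0 in at least 1 library. The libraries also differed in a length slope, the change of a gene's log2 level, taken against its average over libraries, per log2 base of effective transcript length. It was negative in 6 of 6 NBH Control libraries and positive in 6 of 6 SCO Control libraries. The slope and the marker levels are given below beside the results they moved with.

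On the per-length scale gap43 was the most abundant of the 3. Its level ranged from 508 to 1298 TPM with a median of 794 TPM, and 99.1% of tested genes had a lower mean. The level of neurog1 ranged from 20.3 to 68.9 TPM with a median of 40.4 TPM. The level of sox4a ranged from 6.24 to 45.1 TPM with a median of 17.9 TPM. Averaged over the 36 libraries, gap43 stood 37.6-fold above sox4a and 19.0-fold above neurog1 in TPM.

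**Figure D1:**
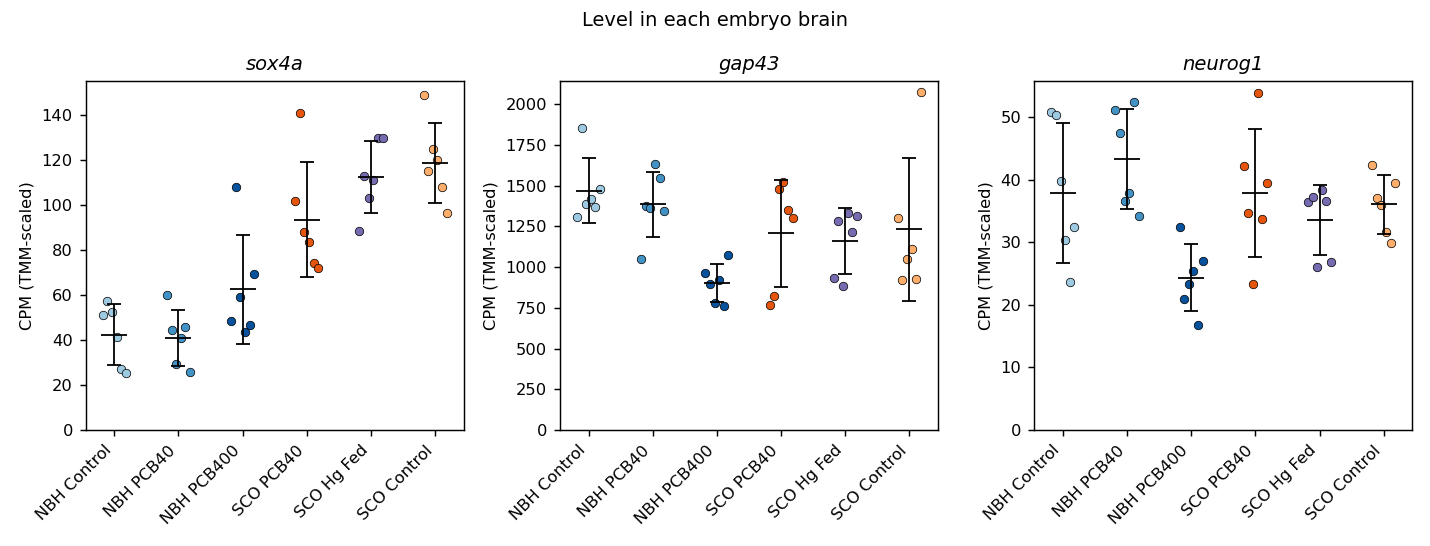
CPM (TMM-scaled) of sox4a, gap43 and neurog1 in each embryo brain by group, with the horizontal bar at the mean and whiskers of 1 SD, n = 6 per group. The sox4a panel separates SCO groups from NBH groups apart from 1 NBH PCB400 embryo at 108 CPM, and the NBH PCB400 group has the lowest mean of gap43 and of neurog1.

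In CPM the sox4a level largely separated the populations. Over the 3 NBH groups it ran from 25.3 CPM through a median of 46.3 CPM to 108 CPM, and over the 3 SCO groups from 72.0 CPM through a median of 109 CPM to 149 CPM. Only 1 of 18 NBH embryos, at 108 CPM in NBH PCB400, lay above the lowest SCO embryo in CPM. On deposited TPM the overlap was wider. There NBH PCB400 replicates 2 and 6 and NBH PCB40 replicate 1 (32.8, 21.8 and 18.0 TPM) exceeded the lowest SCO embryo (16.4 TPM). By group, sox4a averaged 42.4 ± 13.6 CPM in NBH Control, 41.1 ± 12.4 CPM in NBH PCB40, 62.5 ± 24.1 CPM in NBH PCB400, 93.5 ± 25.6 CPM in SCO PCB40, 112 ± 16.0 CPM in SCO Hg Fed and 119 ± 17.9 CPM in SCO Control (SD, n = 6 each). Ordered by mean, SCO PCB40 stood 31.0 CPM above NBH PCB400, more than the larger SD of the pair. The other 4 neighbouring steps, including the 20.1 CPM between NBH PCB400 and NBH Control, were smaller than the larger SD, and the ranges overlapped at every step.

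Between the undosed groups, sox4a was 2.81-fold lower in NBH Control than in SCO Control. NBH Control embryos had 25.3 CPM at the lowest, 46.4 CPM at the median and 57.3 CPM at the highest, against 96.3, 118 and 149 CPM in SCO Control. All 6 NBH Control embryos lay below every SCO Control embryo. The log2 fold change was -1.49 (SE 0.22, adjusted p 3.13e-04, edgeR quasi-likelihood test). In this comparison 17.4% of all tested genes were called and 10.0% were called lower, and 7.68% had every NBH Control library below every SCO Control library. Because whole brains were sequenced in bulk, fewer cells of a type and less RNA per cell cannot be told apart.

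The difference was also present among embryos given 40 ng/L PCB126. NBH PCB40 embryos had 25.8 CPM of sox4a at the lowest, 42.8 CPM at the median and 60.2 CPM at the highest, against 72.0, 85.8 and 141 CPM in SCO PCB40. Again 6 of 6 NBH embryos lay below every SCO embryo in CPM, a pattern that 0.404% of tested genes showed. On deposited TPM these groups overlapped. NBH PCB40 replicate 1, at 18.0 TPM, lay above SCO PCB40 replicates 4, 5 and 6 (17.9, 17.0 and 16.4 TPM). By edgeR, sox4a was 2.27-fold lower in NBH PCB40, with a log2 fold change of -1.18 (SE 0.22, adjusted p 0.0103). In this comparison 0.726% of tested genes were called and 0.339% were called lower. With only these groups in the fit the adjusted p was 0.0749. These embryos are not those of the undosed comparison.

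The population difference coincided with a difference in length slope, and sox4a has the longest transcript of the 3. The slope averaged -0.0859 in NBH Control and 0.0932 in SCO Control. With the slope as a covariate the log2 fold change of sox4a in NBH Control against SCO Control was -1.0 (adjusted p 0.0102), and with the length trend removed from every library it was -1.21 (adjusted p 3.81e-04). In NBH PCB40 against SCO PCB40 the slope covariate gave -1.03 (adjusted p 0.00468) and removal of the trend gave -1.13 (adjusted p 0.00281). The call was thus kept under both length settings, with a smaller difference between the undosed groups. With muscle, pituitary and posterior hox marker scores as covariates the values were -1.26 between the undosed groups (adjusted p 0.00133) and -1.19 between the dosed groups (adjusted p 0.00597). With all groups in the fit, edgeR called none of the genes in these scores between the undosed groups, and 1 had an unadjusted p under 0.05. Voom and DESeq2 also called 0, but all 5 tested posterior hox genes had an unadjusted p under 0.05 in voom. With only these groups in the fit, edgeR called 1 posterior hox gene higher in NBH Control. In that fit 2 muscle and 2 posterior hox genes had an unadjusted p under 0.05. Some markers of brain cells were called in the fit to all groups. In NBH Control against SCO Control these were 14.3% of 7 neuron, 25% of 4 radial glia, 28.6% of 7 oligodendrocyte and 20% of 5 microglia markers. Of all tested genes 17.4% were called there. The list medians were -0.03, -0.62, -0.18 and 0.16 in that order, against -0.01 over all tested genes. In NBH Control against SCO Control the oligodendrocyte gene plp1b was at -3.31 (adjusted p 0.00253) and mbpa at 0.79 (adjusted p 0.0106), the radial glia gene cx43 at -0.61 (adjusted p 0.0160), the microglial gene apoeb at 0.88 (adjusted p 0.0399) and the neuronal gene elavl4 at 0.44 (adjusted p 0.0282). In NBH PCB40 against SCO PCB40, plp1b was at -3.98 (adjusted p 0.00746). Their part in the sox4a difference was not tested.

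Of the other SoxC genes, sox4b was also lower in NBH Control and the Sox11 genes were not called. The sox4b level averaged 134 ± 26.2 CPM in NBH Control and 240 ± 36.4 CPM in SCO Control (SD, n = 6 each), with all 6 NBH embryos below every SCO embryo, as for 7.68% of tested genes, and a log2 fold change of -0.84 (SE 0.19, adjusted p 0.00563). The log2 fold change was 0.08 for sox11a (adjusted p 0.826) and -0.02 for sox11b (adjusted p 0.955). So 2 of 4 SoxC genes were called lower, or 1 with the length slope as a covariate, where 10.0% of all tested genes were called lower. The SoxC median log2 fold change was -0.43, against -0.01 over all tested genes. The 2 called genes include sox4a itself, chosen with earlier results of these data known, so the share is not independent of that choice. In NBH PCB40 against SCO PCB40 the value of sox4b was -0.65 (adjusted p 0.0927), and edgeR called 1 of 4 SoxC genes, sox4a. DESeq2 and removal of the length trend each gave 2 of 4 lower, and only these groups in the fit gave 0, with 2 under an unadjusted p of 0.05.

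On the per-length scale sox4a was the least abundant SoxC gene in each of the 6 groups by mean. In NBH Control the means were 9.91 TPM for sox4a, 31.7 TPM for sox4b, 88.5 TPM for sox11b and 209 TPM for sox11a. In SCO Control they were 31.9 TPM for sox4a, 64.3 TPM for sox4b, 104 TPM for sox11b and 227 TPM for sox11a. Reads shared between the related sox4a and sox4b transcripts were divided by the authors' quantification, and how many were shared was not analysed here.

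The gap43 and neurog1 genes were not called between the populations. The gap43 level averaged 1470 ± 198 CPM in NBH Control and 1231 ± 437 CPM in SCO Control, with a log2 fold change of 0.26 (95% interval -0.09 to 0.60, adjusted p 0.318). SCO Control replicate 6, at 2077 CPM, decided that value: without it the log2 fold change was 0.47 (adjusted p 0.0412). The neurog1 level averaged 37.9 ± 11.1 CPM in NBH Control and 36.1 ± 4.68 CPM in SCO Control, with a log2 fold change of 0.07 (95% interval -0.28 to 0.43, adjusted p 0.817). In NBH PCB40 against SCO PCB40 the log2 fold changes were 0.20 for gap43 (95% interval -0.15 to 0.54, adjusted p 0.605) and 0.19 for neurog1 (95% interval -0.16 to 0.55, adjusted p 0.631).

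Over all 6 groups, NBH PCB400 had the lowest mean of both genes. In the SCO groups gap43 averaged 1207 ± 330 CPM in SCO PCB40, 1161 ± 200 CPM in SCO Hg Fed and 1231 ± 437 CPM in SCO Control, and neurog1 averaged 37.9 ± 10.2 CPM in SCO PCB40, 33.6 ± 5.59 CPM in SCO Hg Fed and 36.1 ± 4.68 CPM in SCO Control (SD, n = 6 each). Ordered by mean, the step between SCO Hg Fed and NBH PCB400 exceeded the larger SD of the pair, by 261 CPM against 200 CPM for gap43 and by 9.25 CPM against 5.59 CPM for neurog1. The 4 other steps of each gene were smaller than the larger SD, and the ranges overlapped at every step.

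At the higher dose gap43 was lower in NBH brains. Over the dose series it averaged 1470 ± 198 CPM in NBH Control, 1386 ± 200 CPM in NBH PCB40 and 901 ± 116 CPM in NBH PCB400 (SD, n = 6 each). NBH PCB400 embryos had 763 CPM at the lowest, 910 CPM at the median and 1074 CPM at the highest, against 1309, 1402 and 1856 CPM in NBH Control. In CPM all 6 NBH PCB400 embryos lay below every NBH Control embryo, a pattern that 2.28% of tested genes showed. On deposited TPM the groups overlapped. NBH PCB400 replicate 6, at 847 TPM, lay above NBH Control replicates 1, 3 and 4 (721, 826 and 815 TPM). By edgeR, gap43 was 1.63-fold lower, with a log2 fold change of -0.71 (SE 0.18, adjusted p 0.0248). In this comparison 3.74% of tested genes were called and 2.31% were called lower.

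Against the lower dose the gap43 difference was near the threshold. NBH PCB40 embryos had 1051 CPM at the lowest, 1370 CPM at the median and 1631 CPM at the highest, and 5 of 6 NBH PCB400 embryos lay below all of them. The level was 1.54-fold lower in NBH PCB400 than in NBH PCB40, with a log2 fold change of -0.62 (SE 0.18, adjusted p 0.0434), where 3.53% of tested genes were called and 2.41% were called lower. Leaving out a single embryo ended this call in 10 of 12 cases (adjusted p 0.0520 to 0.116), the exceptions being NBH PCB40 replicate 1 (0.0161) and NBH PCB400 replicate 6 (0.0252). The call against NBH Control ended in 4 of 12 cases, without NBH Control replicate 2 (adjusted p 0.0690) or NBH PCB400 replicate 2 (0.0605), 3 (0.0576) or 5 (0.0713). The direction was kept each time. The comparisons share the NBH PCB400 embryos and are not independent.

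At the higher dose neurog1 was also lower. It averaged 37.9 ± 11.1 CPM in NBH Control, 43.3 ± 8.00 CPM in NBH PCB40 and 24.3 ± 5.37 CPM in NBH PCB400 (SD, n = 6 each). NBH PCB400 embryos had 16.8 CPM at the lowest, 24.4 CPM at the median and 32.5 CPM at the highest, against 34.2, 42.7 and 52.4 CPM in NBH PCB40. In CPM no NBH PCB400 embryo reached the lowest NBH PCB40 embryo, a separation in this direction that 0.897% of tested genes showed. On deposited TPM the groups overlapped. NBH PCB400 replicates 1 and 6 (37.1 and 38.6 TPM) lay above NBH PCB40 replicate 6 (36.9 TPM). By edgeR, neurog1 was 1.78-fold lower in NBH PCB400 than in NBH PCB40, with a log2 fold change of -0.83 (SE 0.18, adjusted p 0.0150).

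Against NBH Control, where embryos ran from 23.6 CPM through a median of 36.1 CPM to 50.8 CPM, 3 of 6 NBH PCB400 embryos lay below every control and the groups overlapped. The level was 1.56-fold lower in NBH PCB400, with a log2 fold change of -0.64 (SE 0.18, adjusted p 0.0442). Leaving out a single embryo ended this call in 8 of 12 cases (adjusted p 0.0542 to 0.123), the exceptions being NBH Control replicates 4 (0.0408) and 5 (0.0223) and NBH PCB400 replicates 1 (0.0294) and 6 (0.0354). It was not kept with limma voom (adjusted p 0.0627) or with no filter on low counts (adjusted p 0.0539). Against NBH PCB40, the call was lost in 2 of 12 cases, without NBH PCB40 replicate 5 (adjusted p 0.0507) or NBH PCB400 replicate 5 (adjusted p 0.0570).

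The mean length slope and the medians of the summed posterior hox and erythrocyte marker levels differed at the higher dose. There edgeR called no muscle, pituitary, posterior hox or erythrocyte gene. The posterior hox genes, which mark spinal cord and the trunk, summed to 0.163 to 19.3 TPM in NBH PCB400 with a median of 0.379 TPM, against 3.95 to 16.1 TPM in NBH Control with a median of 10.6 TPM. Of 7 matched posterior hox genes, hoxd9a and hoxa10b had a median of 0 over all libraries. The median log2 fold change of the 5 tested posterior hox genes was -1.99, against 0.05 over all tested genes, and 0 of the 5 were called by edgeR, voom or DESeq2, with an unadjusted p under 0.05 for 1 in edgeR and 5 in voom. Likewise 0 of 3 muscle and 0 of 6 pituitary genes were called by these tools, and 0 of either had an unadjusted p under 0.05. The 3 matched erythrocyte markers summed to 21.6 to 36.8 TPM in NBH PCB400, above the 7.75 to 19.9 TPM in NBH Control. Their median log2 fold change was 0.80, and these tools called 0 of the 3. The unadjusted p was under 0.05 for 1 in edgeR, 2 in voom and 2 in DESeq2. No covariate score held these genes, and their part in the results was not tested. The microglial marker cd74a was the only cell type marker called by edgeR with all groups in the fit, at -1.79 (adjusted p 0.0477). With no filter, the replicate block or only these groups in the fit, 0 microglial markers were called. The same held with the length slope or the marker scores as covariates and with the length trend removed. Voom called 1 microglial marker higher and 0 lower. The fit to only these groups called 1 radial glia and 1 oligodendrocyte marker lower. DESeq2 called 1 radial glia marker lower and 1 microglial marker in each direction. The length slope averaged 0.0267 in NBH PCB400 and -0.0859 in NBH Control. With muscle, pituitary and posterior hox scores as covariates the log2 fold changes in NBH PCB400 against NBH Control were -0.60 for gap43 (adjusted p 0.143) and -0.45 for neurog1 (adjusted p 0.256). With the length slope as a covariate they were -0.51 (adjusted p 0.101) and -0.57 (adjusted p 0.107), so these calls ended under both settings. In NBH PCB400 against NBH PCB40 the neurog1 call was kept under both, at -0.76 (adjusted p 0.0327) with the marker scores and -0.78 (adjusted p 0.0325) with the slope. The gap43 call there ended, at -0.58 (adjusted p 0.0662) with the marker scores and -0.43 (adjusted p 0.156) with the slope. In this comparison edgeR called 0 cell type markers with all groups in the fit, where 3.53% of all tested genes were called. With the replicate block, the length trend removed, voom or DESeq2, 1 of 4 radial glia markers was called higher. The median log2 fold change of the 5 tested posterior hox genes was -1.32, against 0.05 over all tested genes.

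The sox4a level pointed the other way at the higher dose, without passing the test. NBH PCB400 embryos had 43.8 CPM at the lowest, 53.8 CPM at the median and 108 CPM at the highest, and 3 of 6 lay above every NBH Control embryo. The log2 fold change was 0.56 against NBH Control (SE 0.22, 95% interval 0.13 to 0.99, adjusted p 0.138) and 0.60 against NBH PCB40 (SE 0.22, 95% interval 0.17 to 1.03, adjusted p 0.111). Without NBH PCB40 replicate 1 the comparison with NBH PCB40 passed, at 0.74 (adjusted p 0.0325). Without NBH PCB400 replicate 2 the values were 0.33 against NBH Control (adjusted p 0.453) and 0.38 against NBH PCB40 (adjusted p 0.373), and with the length slope as a covariate they were 0.20 (adjusted p 0.644) and 0.31 (adjusted p 0.371).

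**Figure D2:**
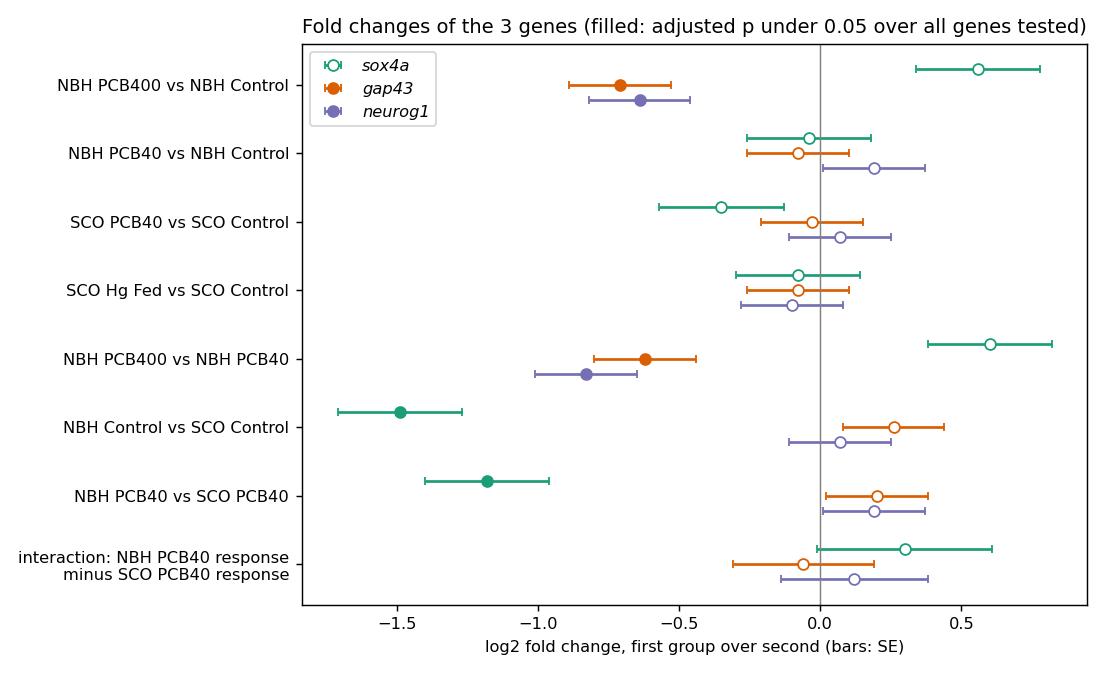
Log2 fold change of sox4a, gap43 and neurog1, first-named group over the other, in the 7 comparisons of groups and the interaction, with bars of 1 SE and filled points for an adjusted p under 0.05. The filled points are sox4a in both comparisons of NBH with SCO, at -1.49 and -1.18, and gap43 and neurog1 in both comparisons of NBH PCB400, between -0.62 and -0.83.

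The lower dose and the parental diet gave no call for the 3 genes. In NBH PCB40 against NBH Control the log2 fold changes were -0.04 for sox4a (95% interval -0.47 to 0.39), -0.08 for gap43 (-0.43 to 0.26) and 0.19 for neurog1 (-0.16 to 0.55), each with an adjusted p of 1.000. There 0% of tested genes were called by edgeR, 713 genes had an unadjusted p under 0.05, voom called 0 and DESeq2 called 20. In SCO PCB40 against SCO Control, where 2.67% of tested genes were called, sox4a averaged 93.5 ± 25.6 CPM in SCO PCB40 and 119 ± 17.9 CPM in SCO Control. Its log2 fold change was -0.35 (95% interval -0.78 to 0.08, adjusted p 0.420), with 4 of 6 SCO PCB40 embryos below every control. It was -0.02 with the marker scores as covariates (adjusted p 0.983), -0.07 with the length slope (adjusted p 0.916) and -0.15 with the length trend removed (adjusted p 0.749). That of gap43 was -0.03 (95% interval -0.37 to 0.32, adjusted p 0.955) and that of neurog1 was 0.07 (95% interval -0.28 to 0.43, adjusted p 0.881).

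In SCO Hg Fed against SCO Control the log2 fold changes were -0.08 for sox4a (95% interval -0.51 to 0.35), -0.08 for gap43 (-0.43 to 0.26) and -0.10 for neurog1 (-0.46 to 0.25), each with an adjusted p of 1.00. In this comparison 0% of tested genes were called by edgeR, 1270 had an unadjusted p under 0.05, voom called 1 and DESeq2 called 95. The response to 40 ng/L was also compared between the populations directly, as the NBH response minus the SCO response. This interaction was 0.30 for sox4a (SE 0.31, adjusted p 0.803), -0.06 for gap43 (SE 0.25, adjusted p 0.962) and 0.12 for neurog1 (SE 0.26, adjusted p 0.914), where 0.0172% of tested genes were called.

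Among 24 tested proneural and early differentiation factors, 2 were called lower and 0 higher in NBH PCB400 against NBH PCB40, with a median log2 fold change of -0.11 against 0.05 over all tested genes. Those 2 are 8.33% of the list, against 2.41% of all tested genes called lower. The 2 include neurog1 itself, chosen with earlier results of these data known, so the share is not independent of that choice. DESeq2 called 5 lower, and 9 had an unadjusted p under 0.05. With the length slope or the marker scores as covariates, or only these groups in the fit, 1 was called. Besides neurog1 the called gene was insm1a, which encodes a zinc finger factor of neurogenic progenitors. The insm1a level averaged 22.5 ± 6.51 CPM in NBH PCB400 and 39.6 ± 8.47 CPM in NBH PCB40, a log2 fold change of -0.81 (adjusted p 0.0407). The bHLH genes atoh1b at -1.17 (adjusted p 0.0729) and neurod4 at -1.02 (adjusted p 0.0569) did not pass. In NBH PCB400 against NBH Control, edgeR called neurog1 alone of the 24 and DESeq2 called 2 lower, and 4 had an unadjusted p under 0.05.

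In NBH Control against SCO Control 5 of the 24 were called, 20.8% of the list, close to the 17.4% of all tested genes called there. Neither neurog1 nor insm1a was among them. All 5 were lower in NBH Control, where 10.0% of all tested genes were called lower: ebf2 at -0.81 (adjusted p 0.00675), myt1la at -0.56 (adjusted p 0.0127), st18 at -0.45 (adjusted p 0.0274), atoh8 at -0.70 (adjusted p 0.0358) and myt1b at -0.31 (adjusted p 0.0481). The myt1la, st18 and myt1b genes encode zinc finger factors of the Myt1 family, and ebf2 encodes a factor of early postmitotic neurons. The list's median was -0.08 against -0.01 over all tested genes. With the length trend removed none of the 24 was called by edgeR, 6 had an unadjusted p under 0.05, and with the length slope or the marker scores as covariates 1 was called.

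**Figure D3:**
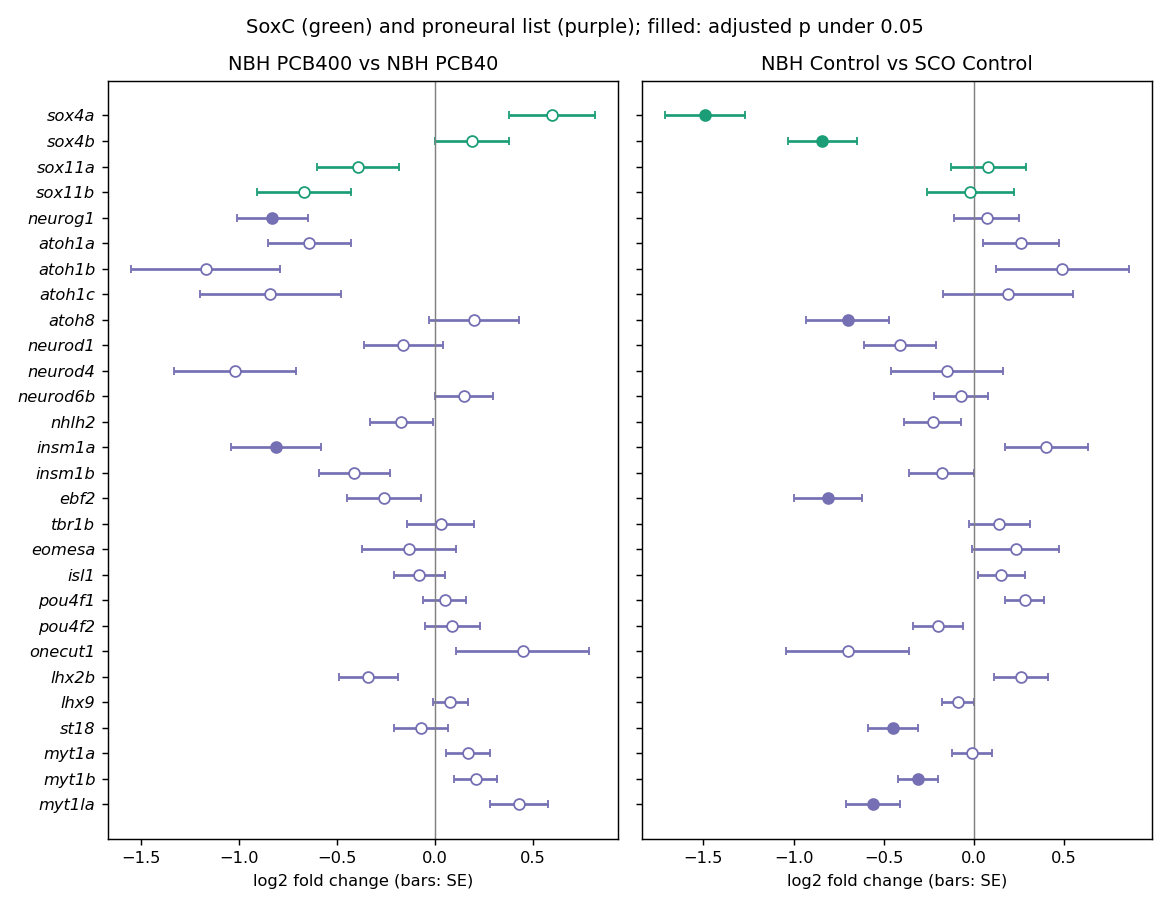
Log2 fold change with bars of 1 SE for 4 SoxC genes (green) and 24 proneural and early differentiation factors (purple) in NBH PCB400 against NBH PCB40 and in NBH Control against SCO Control, filled where the adjusted p was under 0.05. In the first panel neurog1 and insm1a are filled near -0.8, and in the other sox4a at -1.49 and sox4b at -0.84 stand lower than sox11a and sox11b.

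Among 24 tested Notch pathway and Her genes, which include the ligands that proneural factors raise, edgeR called 0 in NBH PCB400 against NBH PCB40, where 5 had an unadjusted p under 0.05, voom called 0 and DESeq2 called 1. Against NBH Control, edgeR, voom and DESeq2 each called 0, and 2 had an unadjusted p under 0.05. Of all tested genes, edgeR called 3.53% against NBH PCB40 and 3.74% against NBH Control. In SCO PCB40 against SCO Control, where 2.67% of all tested genes were called, 3 of the 24 were called. The Notch ligand gene dla (0.74, adjusted p 0.0172) and the Notch target heyl (0.51, adjusted p 0.0211) rose, and numb, which encodes a Notch inhibitor, fell by 0.95 on the log2 scale (adjusted p 0.00245). With only these groups in the fit the list held 1 call, which was lower. Cell type markers were called in the same comparison, 2 of 3 muscle, 1 of 5 microglial and 1 of 7 oligodendrocyte genes. The muscle genes ckmb (3.16, adjusted p 0.0216) and ckma (2.94, adjusted p 0.0286) and the microglial gene spi1b (0.79, adjusted p 0.0400) were higher in SCO PCB40, and the oligodendrocyte gene mag was lower (-1.04, adjusted p 0.0401). With only these groups in the fit, 0 genes of these 3 marker lists were called. Muscle genes had 0 calls in voom and with the replicate block, and microglial and oligodendrocyte genes had 0 with the length slope. Of 3 erythrocyte genes edgeR called 0, but 3 had an unadjusted p under 0.05, with a median of 0.97. The part of these markers in the Notch calls was not tested. In NBH Control against SCO Control 4 of the 24 were called, all lower, which is 16.7% of the list. Of all tested genes 10.0% were called lower there and 17.4% in either direction. Among the 4 was the ligand gene jag2b at -1.15 (adjusted p 0.00429). With the length slope as a covariate 1 was called lower and 1 higher.

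Of 16 tested proliferation genes, 9 were called lower and 0 higher in NBH PCB400 against NBH PCB40, where 2.41% of all tested genes were called lower, with a median of -0.87 against 0.05 over all tested genes. The aurkb gene, encoding a mitotic kinase, averaged 20.5 ± 6.49 CPM in NBH PCB400 and 49.9 ± 7.41 CPM in NBH PCB40, a log2 fold change of -1.28 (adjusted p 0.0102). The cell cycle kinase gene cdk1 was at -1.22 (adjusted p 0.0140) and the replication licensing gene mcm7 at -0.87 (adjusted p 0.0140). The count was 4 with the length slope as a covariate, 5 with only these groups in the fit and 12 with the length trend removed. Against NBH Control, where 2.31% of all tested genes were called lower, 4 of 16 were called lower, with a median of -0.75 against 0.05. The count was 9 with DESeq2, 2 with no filter and 0 with the length slope or the marker scores as covariates, where 11 and 9 had an unadjusted p under 0.05.

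Genes of other stages were not called in NBH PCB400 by edgeR. Of all tested genes, 3.53% were called against NBH PCB40 and 3.74% against NBH Control. Lists of 18 or 21 genes with 0 calls are thus not set apart from the rest. Of 18 tested neural progenitor genes, edgeR called 0 against NBH PCB40 and 0 against NBH Control, while DESeq2 called 0 and 1; the unadjusted p was under 0.05 for 5 and 3 of them. Of 21 tested mature neuron genes, edgeR, voom and DESeq2 called 0 against both, with 3 under an unadjusted p of 0.05 in each.

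Of 37 tested growth cone and axon growth genes, 4 were called lower and 0 higher in NBH PCB400 against NBH Control, with a median of -0.08 against 0.05 over all tested genes. Those 4 are 10.8% of the list, against 2.31% of all tested genes called lower. The 4 include gap43 itself, chosen with earlier results of these data known, so the share is not independent of that choice. The count was 1 with the length slope, 0 with the marker scores and 2 with only these groups in the fit. Besides gap43 these were tubb5, a beta tubulin gene, dpysl5a, which encodes a collapsin response mediator protein, and map1b, which encodes a microtubule-associated protein. The tubb5 level averaged 1343 ± 362 CPM in NBH PCB400 and 2667 ± 644 CPM in NBH Control, with all 6 NBH PCB400 embryos below every control, as for 2.28% of tested genes, and a log2 fold change of -0.99 (adjusted p 0.0266). The log2 fold change was -0.63 for dpysl5a (adjusted p 0.0258) and -0.42 for map1b (adjusted p 0.0396). Against NBH PCB40 edgeR called gap43 and tubb5 in the list, with tubb5 at -0.93 (adjusted p 0.0359), and DESeq2 called 3. The count there was 1 with no filter or only these groups in the fit, and 0 with the length slope or the marker scores as covariates, where 8 and 5 had an unadjusted p under 0.05.

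Between the undosed populations 5 of the 37 growth cone genes were called, gap43 not among them. That is 13.5% of the list, below the 17.4% of all tested genes called. NBH Control was lower in the adhesion molecule genes ncam1b (-0.91, adjusted p 0.00439) and l1cama (-0.68, adjusted p 0.00865), in dpysl2a (-0.64, adjusted p 0.0133) and in basp1 (-0.63, adjusted p 0.0234), whose product resembles GAP-43 as a calmodulin-binding membrane protein. It was higher in map1b (0.45, adjusted p 0.0111). The list's median was -0.08 against -0.01 over all tested genes, and with the length slope as a covariate 0 of the 37 were called, with 7 under an unadjusted p of 0.05. With the marker scores 1 was called.

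Of 10 tested calmodulin and protein kinase C genes, the partners of the GAP-43 protein, edgeR and voom called 0 in NBH PCB400 against NBH Control and 0 against NBH PCB40. DESeq2 called 1 in each, and 3 and 1 had an unadjusted p under 0.05. Of all tested genes, edgeR called 3.74% and 3.53% in these comparisons. In NBH Control against SCO Control, prkcaa was lower (-1.20, adjusted p 0.0246) and calm3a higher (0.45, adjusted p 0.0402). These calls are 20% of the list, near the 17.4% of all tested genes called there. The list held 0 calls there with the length slope or the marker scores as covariates, where 3 and 1 had an unadjusted p under 0.05, and 0 higher with no filter. In SCO PCB40 against SCO Control 1 of the 10 was called, 10% of the list, where 2.67% of all tested genes were called. This was calm2a, at -0.35 (adjusted p 0.0393). The list held 0 calls in 5 of 9 other settings. Among them were no filter, the marker scores as covariates and only these groups in the fit, each with 1 under an unadjusted p of 0.05. Of 17 tested regulators of neuronal genes and of the response to nerve injury, 1 was called in NBH PCB400 against NBH Control. That is 5.88% of the list, where 3.74% of all tested genes were called. The call was socs3b, which encodes a feedback inhibitor of cytokine signalling. It averaged 6.23 ± 1.13 CPM in NBH PCB400 and 2.68 ± 1.05 CPM in NBH Control, a log2 fold change of 1.22 (adjusted p 0.0342). With the length slope or the marker scores as covariates 0 of the 17 were called, with 3 and 5 under an unadjusted p of 0.05. In NBH Control against SCO Control 2 of the 17 were called lower, 11.8% of the list, where 10.0% of all tested genes were. These were socs3b (-1.02, adjusted p 0.0295), which averaged 5.45 ± 2.15 CPM in SCO Control, and klf6a (-0.71, adjusted p 0.0276). In SCO PCB40 against SCO Control klf6a alone was called (-0.79, adjusted p 0.0477), 5.88% of the list against 2.67% of all tested genes.

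The genes whose level followed each of the 3 most closely were found by Pearson correlation of log2 CPM over the 36 libraries, among 12376 named genes. These values describe the libraries and share their length slope and marker levels. The 5 genes most like sox4a were sox4b (r = 0.93), tnip1 (0.92), trak2 (0.92), tmem161a (0.92) and prr5a (0.89). When each gene's deviations from its group means were used instead, trak2 ranked first (0.90) and the value of sox4b was 0.84. Those most like gap43 were sept2 (0.84), uchl5 (0.80), tubb5 (0.80), actb2 (0.80) and mrps17 (0.80), with 0.66 to 0.74 within groups. Of these, tubb5 encodes a beta tubulin and actb2 an actin.

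Among those most like neurog1 were pif1 (r = 0.88), plk1 (0.87), kif2c (0.86) and prc1b (0.85). The plk1, kif2c and prc1b genes encode proteins of the mitotic spindle and its midzone, and pif1 encodes a DNA helicase. Within groups their values were 0.76 to 0.82. No gene stood in the first 5 for more than 1 of the 3.

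Among the 3 genes themselves, gap43 and neurog1 varied together over the 36 libraries (Pearson r = 0.47, permutation p 0.00395, adjusted p 0.0132; Spearman rho = 0.42, permutation p 0.0109, adjusted p 0.0326). The p-values were adjusted over 15 relations, of the 3 genes with each other and with the length slope and marker scores. Values were permuted over all 36 libraries without regard to group, so these p-values also take in differences between the groups. Without the 2 libraries farthest from the median of gap43, r was 0.46. Over the 18 NBH embryos r was 0.69 and over the 18 SCO embryos 0.15, and after removal of the group means it was 0.18. For sox4a with gap43 r was -0.28 (permutation p 0.102, adjusted p 0.186; rho = -0.39, permutation p 0.0172, adjusted p 0.0431). For sox4a with neurog1 r was 0.04 (permutation p 0.833, adjusted p 0.833; rho = 0.03, permutation p 0.849, adjusted p 0.849).

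The sox4a level followed the length slope of the library. Over the 36 libraries r was 0.72 and rho 0.70, each with a permutation p of 1.00e-05, the smallest that 100000 permutations can give, and an adjusted p of 1.50e-04. It was 0.75 without the 2 libraries with the most distant slopes, 0.68 over the 18 NBH embryos, 0.85 over the 18 SCO embryos and 0.63 after removal of the group means. Within NBH Control it was -0.55, and in the other 5 groups it ran from 0.40 to 0.90, over 6 embryos each. The NBH PCB400 embryo with 108 CPM of sox4a had a slope of 0.153, near the upper end. The gap43 level ran against the slope (r = -0.54, permutation p 8.80e-04, adjusted p 0.00660; rho = -0.60, permutation p 2.20e-04, adjusted p 0.00165), at -0.48 without the 2 most distant libraries and -0.49 after removal of the group means.

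**Figure D4:**
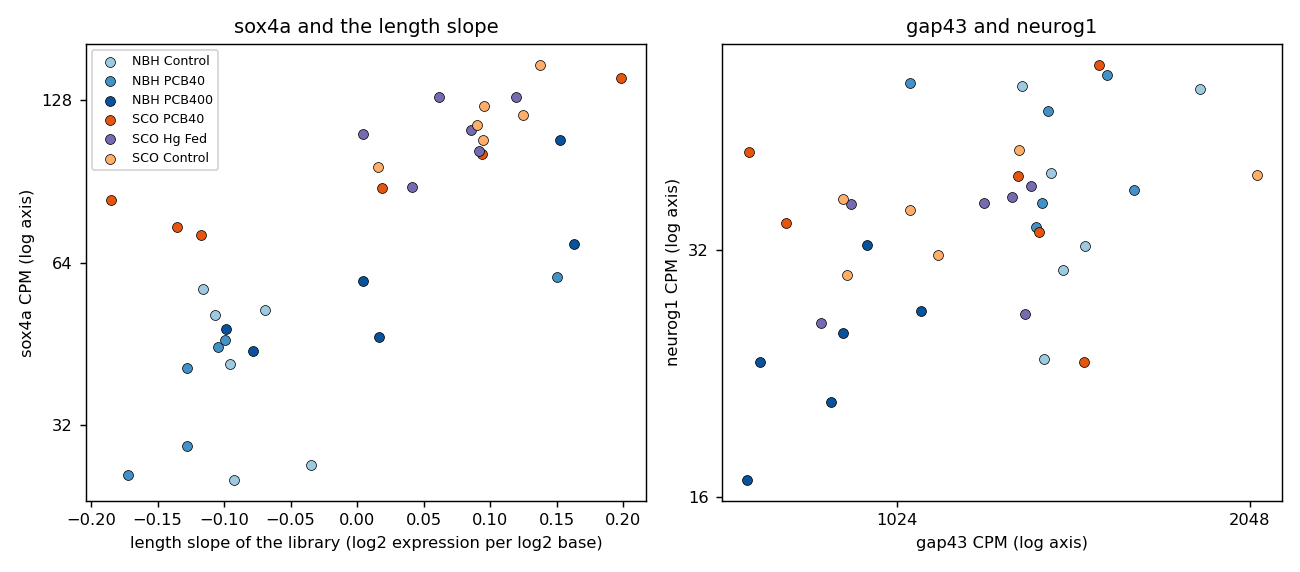
Left, sox4a CPM (log axis) against the length slope of each of 36 libraries; right, neurog1 CPM against gap43 CPM (both log axes), with 1 point per embryo coloured by group. The left panel rises over all libraries (r = 0.72), with SCO points above NBH points of the same slope for most of its width, and in the right panel the NBH PCB400 points lie at the lower left.

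Marker scores also moved with the levels. The sox4a level ran against the muscle score (r = -0.48, permutation p 0.00271, adjusted p 0.0132; rho = -0.55, permutation p 7.00e-04, adjusted p 0.00350), at -0.57 both without the 2 most distant libraries and after removal of the group means. The 3 matched muscle markers summed to between 8.59 and 111 TPM per library. The gap43 level ran with the posterior hox score (r = 0.46, permutation p 0.00440, adjusted p 0.0132; rho = 0.45, permutation p 0.00649, adjusted p 0.0243), at 0.43 without the 2 most distant libraries and 0.34 after removal of the group means. With the pituitary score sox4a had r = -0.27 (permutation p 0.112, adjusted p 0.186) and rho = -0.38 (permutation p 0.0215, adjusted p 0.0460), and r was -0.18 without the 2 most distant libraries. For neurog1, none of its 4 relations with the slope and scores passed, the lowest adjusted p being 0.186 for r and 0.139 for rho.

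The genes that flank each of the 3 in the RefSeq gene table for the assembly MU-UCD_Fhet_4.1 were read for the same contrasts. Beside sox4a, nrsn1l was lower in NBH Control than in SCO Control, averaging 4.92 ± 0.957 CPM in NBH Control and 19.3 ± 1.81 CPM in SCO Control. The groups did not overlap, and the log2 fold change was -1.97 (SE 0.51, adjusted p 0.0108). Of all tested genes, 7.68% were separated in this direction, 17.4% were called and 10.0% were called lower. In NBH PCB40 against SCO PCB40 nrsn1l was at -0.35 (adjusted p 0.763). On the other side of sox4a, e2f3 was at 0.18 in NBH Control against SCO Control (adjusted p 0.543). Neither neighbour of gap43 nor of neurog1 was called in the comparisons of NBH PCB400 with NBH Control or NBH PCB40. These neighbours, mpzl3 and LOC105933220 beside gap43 and tbc1d2 and LOC105920605 beside neurog1, had log2 fold changes from 0.09 to 0.39 against NBH Control. In NBH Control against SCO Control, LOC105933220 was called lower (-0.57, adjusted p 0.0473), though gap43 was not called. There mpzl3, tbc1d2 and LOC105920605 were not called.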

How the data were processed

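RNA from the whole brains of 36 individual embryos, 6 in each of 6 groups, was isolated with the Qiagen RNeasy® Micro column kit, as the labels' protocols state. Salmon 1.3.0 and edgeR 3.30.3 were used, per the submitters' processing notes, with no role or order given. The genome build, trimming and filters are not given in the sources used here, so no coordinates are given. The deposited files hold, for each of 56244 RefSeq transcripts, an estimated count and a TPM value, both as made by the authors, with transcript and effective lengths in bases.

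All transcripts matched 1 of 31637 genes of the RefSeq table. Estimated counts were summed per gene and rounded. edgeR 4.0.16 (R 4.3.3) fitted 1 quasi-likelihood model to all 36 libraries, with a mean per group, TMM factors and filterByExpr, which left 23292 genes. Tests were two-sided, with Benjamini-Hochberg adjustment over all of them and a threshold of 0.05. The SE is the log2 fold change divided by the square root of F, and 95% intervals are 1.96 SE on either side. Log2 CPM for correlations had a prior count of 2, and permutation tests drew 100000 permutations over all libraries without regard to group. Alternatives were RLE factors, no filter, a replicate block, length slope or marker scores as covariates, the length trend removed, only the groups compared, limma 3.58.1 voom, DESeq2 1.42.0, deposited TPM and leaving out each embryo. Fits were tested on simulated data.

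Replicate numbers are shared between groups. Deviations from group means correlated above 0.1 in 7 of 90 same-numbered pairs of libraries and in 38 of 450 other-numbered pairs of different groups. The medians were 0.015 and -0.004. Of the 6 numbers, 14 of 36 libraries correlated best, on average, with their own. That is more than an even spread over the 6 numbers would give. Whether the numbers pair embryos was not settled, and the main fit did not pair them. Within groups, no 2 libraries were identical, with correlations of log2 CPM between 0.927 and 0.971.

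The 3 genes and the gene lists (224 of 308 entries matched by symbol) were chosen with earlier results of these data known. Named in the text are the 3 genes in every comparison, up to 3 called genes of a list and comparison by smallest p, the SoxC and proneural genes where calls were most numerous, and the 5 named genes most like each of the 3, of which 1 is not reported here. Outside that rule, map1b in NBH PCB400, dpysl2a and basp1, the proneural genes named for NBH PCB400 against NBH PCB40 that did not pass, and the flanking genes were named after their values were seen.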

Additional observations from a re-analysis of the deposited data

Results flagged for a closer look

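In each group of 6 embryos, the gap between the highest or lowest embryo and its nearest neighbour was set against the group's range for each of the 3 genes, in 18 such sets. In gap43, NBH Control replicate 2 stood apart at 1856 CPM, with a gap of 0.685 of the range, while the other NBH Control embryos lay between 1309 and 1481 CPM. SCO Control replicate 6 also stood apart in gap43, at 2077 CPM, with a gap of 0.671 of the range, above the next SCO Control embryo at 1301 CPM. Both gaps exceed the 95% critical value of Dixon's test for 6 samples, which chance passes in about 1 in 20 groups. Without NBH Control replicate 2, gap43 in NBH PCB400 against NBH Control had a log2 fold change of -0.63 (adjusted p 0.0690).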

How the results depend on the processing

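The difference of sox4a between NBH Control and SCO Control was called in 9 of 9 other settings (-1.55 to -1.0) and in 12 of 12 fits that left out 1 embryo (-1.59 to -1.38). Calls lost were those of gap43 in NBH PCB400 against NBH Control with the length slope (-0.51) or marker scores (-0.60) as covariates. Likewise lost was neurog1 in NBH PCB400 against NBH Control with no filter (-0.64), the length slope (-0.57), the length trend removed (-0.47), marker scores (-0.45), only the groups compared (-0.65) and voom (-0.61). For gap43 in NBH PCB400 against NBH PCB40, no filter (-0.63), the length slope (-0.43), the length trend removed (-0.54) and marker scores (-0.58) ended the call. For sox4a in NBH PCB40 against SCO PCB40, only the groups compared did (-1.18). The cause was not tested. Uncalled values changed sign with the length slope for neurog1 in SCO PCB40 (-0.0050), gap43 (-0.02) and neurog1 (-0.04) in NBH Control against SCO Control, and the interaction of sox4a (-0.04) and gap43 (0.14). They did so with the length trend removed for neurog1 in SCO PCB40 (-0.07) and in NBH Control against SCO Control (-0.19), and with marker scores for sox4a in NBH PCB40 against NBH Control (0.05) and the interaction of gap43 (0.16) and neurog1 (-0.01). The replicate block, in which same-numbered embryos share a term, changed no call of the 3 genes (gap43 in NBH PCB400 against NBH Control -0.71). Of the libraries, 14 of 36 correlated best with their own number, more than an even spread over the numbers would give.

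Leaving out 1 embryo gave -0.76 to -0.63 for gap43 and -0.74 to -0.54 for neurog1 in NBH PCB400 against NBH Control, and -0.69 to -0.57 for gap43, -0.93 to -0.74 for neurog1 and 0.38 to 0.74 for sox4a against NBH PCB40. It gave 0.18 to 0.47 for gap43 and -0.04 to 0.18 for neurog1 in NBH Control against SCO Control, -0.18 to 0.06 for sox4a in NBH PCB40 against NBH Control, -0.11 to 0.18 for gap43 and -0.06 to 0.18 for neurog1 in SCO PCB40, -0.16 to 0.13 for gap43 in SCO Hg Fed and -0.27 to 0.03 for the gap43 interaction. On deposited TPM the log2 ratio of mean gap43 levels in NBH PCB400 to NBH Control was -0.48.

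The count of all genes called depended on the setting. Against 870 in NBH PCB400 over NBH Control it ran from 52 (marker scores) to 1574 (DESeq2), against 822 over NBH PCB40 from 126 (only the groups compared) to 1599 (DESeq2), against 622 in SCO PCB40 from 98 to 1313, against 4048 in NBH Control over SCO Control from 538 (length slope) to 6270, against 169 in NBH PCB40 over SCO PCB40 from 8 to 650, and against 4 for the interaction from 1 to 78. Leaving out 1 embryo gave 195 to 1359, 97 to 2594, 247 to 1470, 2726 to 3937, 38 to 482 and 2 to 30 in the same order. It also gave 0 to 1 in NBH PCB40 over NBH Control and 0 to 7 in SCO Hg Fed, where the other settings gave 0 to 20 and 0 to 95.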
